A study of Mus musculus with 3 samples.

Results

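The comparison asks how losing both copies of *Tbr1* differed from losing 1 copy in tdTomato+ cells of the medial prefrontal cortex (mPFC) at P5. Its members are the typical neuronal cells, chosen as the cells that the authors kept for differential expression, in the library of heterozygous (*Tbr1* layer5 heterozygous) and that of homozygous (*Tbr1* layer5 homozygous) mice. They number 5357 heterozygous and 3935 homozygous cells, 9292 of the 17396 filtered cells of the series, and the 1778 wild-type cells of the same kind serve as a reference level. The heterozygous mice were Tbr1 f/+ and the homozygous mice Tbr1 f/f, the label of the wild-type mice names no floxed allele, and all carried *Rbp4-cre* and a tdTomato reporter on C57Bl6. *Rbp4-cre* acts mainly in layer 5 pyramidal neurons, and the floxed allele loses exons 2 and 3 of *Tbr1*. Cells were sorted for tdTomato after papain dissociation and run on the 10X Chromium platform with 3′ v2 chemistry. There was 1 library per genotype, the number of mice in each was not given in the sources used here, and no value has a replicate error. Genotype, library and animal therefore cannot be told apart, and no test between the libraries was run.

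*Tbr1* encodes a T-box transcription factor of deep-layer cortical neurons that is needed for the identity of corticothalamic neurons and for synapse formation. Heterozygous loss-of-function variants of the human gene are a known cause of autism and intellectual disability. The difference between heterozygous and homozygous loss is thus the step between a reduced and an absent functional dose in cells where the Cre has acted.

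Unique molecular identifiers (UMIs) were summed per gene over the cells of a library and divided by all UMIs of these cells to give CPM, UMIs per 1000000 UMIs. The sums held 10418228 heterozygous and 6074494 homozygous UMIs, and the median cell had 1743 and 1375 UMIs, 836 and 712 genes and 15.4 and 12.5% mitochondrial UMIs in the same order. Intervals are 95% and exact, Poisson for a level and conditional binomial for a ratio, and reflect counting error alone. Y-linked genes (*Ddx3y*, *Eif2s3y*, *Kdm5d* and *Uty*) had 158 UMIs in the homozygous cells and 0 in the heterozygous cells, where a count of 0 allows up to 0.288 CPM (a floor of 3 counts), so the sex of the animals and genotype cannot be told apart either. Between these cells of both libraries 31 barcodes were shared.

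The markers went with the neuronal label only in part. Excitatory markers, 10 of 10 detected, summed to 3664 CPM in heterozygous and 4332 CPM in homozygous typical cells (log2 ratio 0.24, 0.22 to 0.26), of which *Nrgn* alone made up 2062 and 2722 CPM. The sums were above the 2531 and 2831 CPM of empty droplets (barcodes of 100 to below 500 UMIs) and above the 2698 and 1808 CPM of the other sorted cells. The authors picked neuronal clusters by *Nrgn*, *Rorb* and *Cnih2*, and *Nrgn* and *Cnih2* are on this list. That choice shapes the excess over the other sorted cells, which is therefore no independent evidence for the label. *Slc17a7*, the vesicular glutamate transporter of cortical excitatory neurons, was at 46.9 and 38.5 CPM against 30.1 and 25.3 CPM in empty droplets. Microglial markers were far below their empty-droplet level, at 41.7 and 45.1 CPM against 294 and 175 CPM. The 10 markers of astrocytes and radial glia, however, were all detected and summed to 10370 and 11370 CPM, close to the 11780 and 11920 CPM of empty droplets, with *Fabp7* at 4775 and 5647 CPM. At least 1 UMI of this list was found in 99.96% of heterozygous and 100% of homozygous cells, and 6.8% of heterozygous and 7.9% of homozygous cells had more UMIs of the excitatory than of the astroglial list. The cells are therefore called typical cells below, by the authors' grouping. If all UMIs of the marker list that was lowest relative to empty droplets were free RNA, it made up 8.43% of heterozygous (meningeal list) and 17.1% of homozygous (mural list) UMIs, and taking off the empty-droplet profile at these shares left 146 genes higher and 86 lower by 1.3-fold in the comparison that follows, against 119 and 81 without it.

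Few genes differed much between the libraries. Of 14933 genes, 4307 had a mean of at least 20 CPM over the heterozygous and homozygous libraries (*Rusc2* lay just below at 19.997 and *Tmsb15l* just above at 20.005). Of these, 119 (2.76%) were higher and 81 (1.88%) lower in homozygous cells by at least 1.3-fold, a log2 ratio of 0.38, a limit of size that is not a test. The median log2 ratio was 0.01 and the middle 50% of genes lay between −0.09 and 0.11. At 1.5-fold 29 genes (0.673%) were higher and 19 (0.441%) lower, and among the 1253 genes that averaged 100 CPM or more 23 (1.84%) were higher and 11 (0.878%) lower by 1.3-fold. Much of the tail lay at low levels, where the counting interval of a gene at 20 to 50 CPM reached a median of 0.27 to either side and 6.41% of genes passed 1.3-fold in either direction, against 2.42% at 100 to 500 CPM. Above 500 CPM, where the interval reached only 0.044, the share was 3.62% of 304 genes. For scale, 20.1% of 4230 genes were past 1.3-fold when heterozygous and 17.8% of 4269 when homozygous cells were set over wild-type, comparisons that share their wild-type library with each other and their mutant libraries with the values here. The wild-type cells held 3670646 UMIs, fewer than either mutant library, and a median of 10.4% mitochondrial UMIs. Counting error is thus wider in both comparisons, and its part in these shares was not tested.

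**Figure D1:**
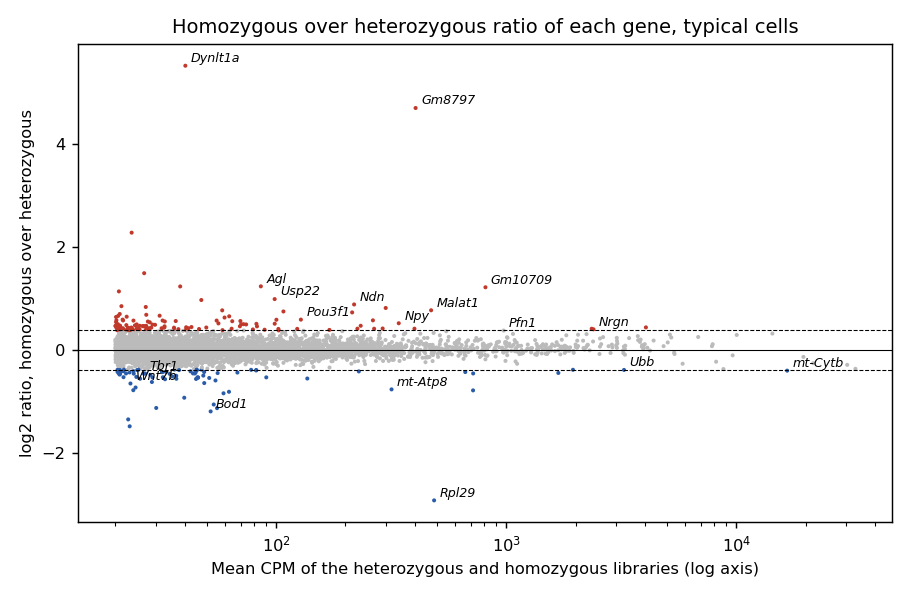
Each point is 1 gene whose mean was 20 CPM or more; the x axis gives the mean CPM of both mutant libraries on a log axis, the y axis the homozygous over heterozygous log2 ratio, and dashed lines mark 1.3-fold. Red genes (119) are higher and blue genes lower in homozygous cells, most lie near 0, and *BC023719*, with 0 homozygous UMIs, is counted among the 81 lower genes but has no point.

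The split into higher and lower genes depended on the scaling and on the genes and cells taken. Higher genes made up 59.5% of those past 1.3-fold in CPM, 53.85% with TMM factors (edgeR) and 51.55% with size factors (DESeq2). With only UMIs of the genes in the table of neuronal cells as denominator they made up 47.4% (156 higher, 173 lower). That smaller denominator also brought 5457 instead of 4307 genes to 20 CPM, so this change is not of scaling alone. In 2969 cells per library matched on mitochondrial share, a choice of cells, higher genes made up 31.04% (104 higher, 231 lower). The median of all genes moved by −0.08 there, to −0.07, and ratios given below for these matched cells carry this shift. As mean raw UMIs per cell, which keeps the lower depth of homozygous cells, the median of all genes moved by −0.33, 17 genes were higher and 1531 lower, and any CPM ratio between 0 and 0.33 turns negative. All ratios below are relative to the UMIs of the cell.

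*Tbr1* (ENSMUSG00000035033) had 101 UMIs in wild-type, 320 in heterozygous and 136 in homozygous typical cells, or 27.5, 30.7 and 22.4 CPM, and a log2 ratio between the mutants of −0.46 (−0.76 to −0.16). The homozygous level was the lowest and the heterozygous level was not below wild-type. Counting of 3′ ends, downstream of the deleted exons, cannot tell a recombined from an intact transcript. In empty droplets the homozygous over heterozygous log2 ratio of *Tbr1* was −0.20 (−0.49 to 0.09) and in the other sorted cells −0.65 (−1.22 to −0.11). In the 364 heterozygous and 311 homozygous typical cells with more excitatory than astroglial UMIs, a subset chosen after seeing the data, the *Tbr1* ratio was −0.054 and not past 1.3-fold. *Tbr1* is itself on the excitatory list by which these cells were chosen, so the choice shapes this value. No counting interval was computed for it.

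Of 29 genes of deep-layer identity, 19 had a mean of at least 20 CPM, with a median log2 ratio of 0.05. By 1.3-fold 1 of them was higher and 1 (*Tbr1*) lower, against 2.76% and 1.88% of all measured genes. *Etv1*, an ETS factor of layer 5 neurons, was at 30.2, 22.8 and 31.6 CPM in the libraries ordered as for *Tbr1*. *Etv1* was the 1 higher gene, with a log2 ratio of 0.47 (0.19 to 0.75) and heterozygous cells the lowest of the 3 libraries, and the ratio was 0.25 in cells matched on mitochondrial share and −0.01 in empty droplets. *Bcl11b*, which encodes the subcerebral factor CTIP2, had the same order at 73.0, 59.0 and 76.4 CPM, a ratio of 0.37 (0.19 to 0.55). *Ldb2*, a LIM-domain binding cofactor of layer 5 neurons, ran the other way at 55.0, 57.7 and 48.1 CPM, a ratio of −0.26 (−0.47 to −0.06). *Mgst3* at 742, 944 and 974 CPM and *Neurod6*, a bHLH factor of pyramidal neurons, at 201, 246 and 240 CPM were nearly level between the mutants, with ratios of 0.05 and −0.03.

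Upper-layer and callosal genes leaned higher in homozygous cells relative to all UMIs, with a median ratio of 0.09 that was −0.24 as mean raw UMIs per cell. Of 19 genes, 11 were measured at 20 CPM or more and 10 had a ratio above 0, where the median of all measured genes was 0.01. By 1.3-fold 2 were higher and 0 lower, against 2.76% and 1.88% of all measured genes. The median of the list was 0.08 in empty droplets and −0.31 in the other sorted cells. The list summed to 1385, 1396 and 1603 CPM across the 3 genotypes, a ratio of 0.20 (0.16 to 0.24) between the mutants. Members of high level weigh most in this sum. *Pou3f1*, a POU factor of upper-layer and some layer 5 neurons, had the largest ratio of the list, at 90.7, 102 and 154 CPM and a log2 ratio of 0.59 (0.46 to 0.72). Homozygous cells stood above both other libraries, in empty droplets the ratio was 0.44, in the other sorted cells −0.31, and in cells matched on mitochondrial share 0.36. Its relative *Pou3f2* was at 24.8, 21.1 and 27.5 CPM, a ratio of 0.38 (0.08 to 0.68). *Mef2c*, a MADS-box factor that regulates synapse number, was at 682, 704 and 803 CPM, a ratio of 0.19 (0.14 to 0.24), and 0.03 in cells matched on mitochondrial share. *Rorb*, a nuclear receptor of layer 4, was at 86.1, 98.8 and 121 CPM (0.29, 0.16 to 0.43), whereas *Cux2*, a homeobox factor of upper layers, was at 48.5 CPM in heterozygous and 49.5 CPM in homozygous cells, both above the 27.5 CPM of wild-type.

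**Figure D2:**
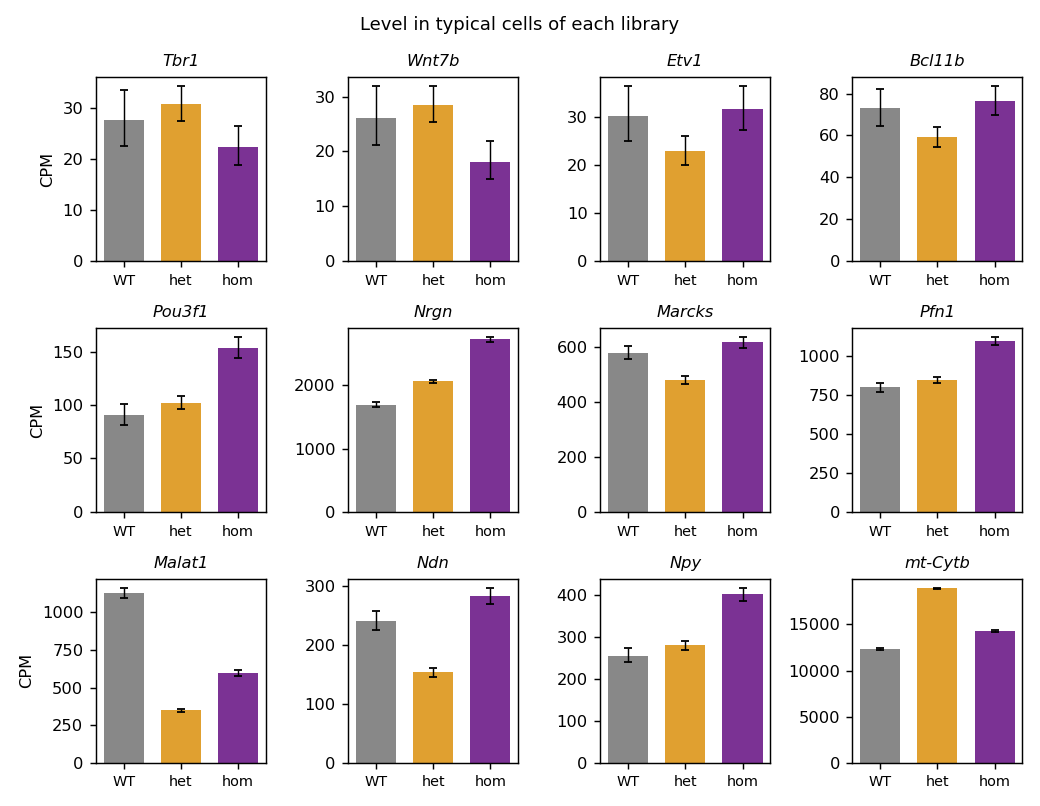
CPM of 12 genes in typical cells of the wild-type (WT), heterozygous (het) and homozygous (hom) library, with 95% Poisson intervals that cover counting error only. *Tbr1* and *Wnt7b* are lowest in homozygous cells, *Pou3f1*, *Nrgn*, *Pfn1* and *Npy* are highest there, and *Etv1*, *Bcl11b*, *Marcks* and *Ndn* are lowest in heterozygous cells.

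Among calmodulins and calcium sensors, 1 of 23 measured genes was higher and 0 lower by 1.3-fold, against 2.76% and 1.88% of all measured genes. The median of the list was 0.05. The higher gene was *Nrgn*, which encodes neurogranin, a postsynaptic calmodulin-binding protein, at 1692, 2062 and 2722 CPM. Its homozygous over heterozygous log2 ratio was 0.40 (0.37 to 0.43), with homozygous cells the highest and wild-type cells the lowest. The ratio was 0.25 in empty droplets and also 0.25 in cells matched on mitochondrial share. It was −0.59 (−0.65 to −0.53) in the other sorted cells and −1.12 (−1.28 to −0.96) in atypical neuronal cells. The authors picked neuronal clusters partly by *Nrgn* and set atypical cells apart partly for low *Nrgn*. The grouping thus shapes the *Nrgn* values of typical, other and atypical cells, and their contrast is no independent result. *Calm2*, a calmodulin gene, differed far less, at 3765 and 4014 CPM (0.09, 0.07 to 0.12), and at −0.05 in the matched cells. *Marcks*, a membrane-bound protein kinase C substrate, was at 580, 479 and 617 CPM (0.36, 0.30 to 0.42), and *Camk4*, a nuclear calcium/calmodulin-dependent kinase, at 75.2, 80.6 and 66.5 CPM (−0.28, −0.45 to −0.10).

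Of 34 measured genes of the synaptic vesicle, 0 were past 1.3-fold, against 4.64% of all measured genes in either direction, and the median was −0.03. For this and every other list with 0 members past 1.3-fold that share comes to few genes or less than 1, so a count of 0 sets none of them apart. *Sv2a*, a vesicle glycoprotein, at 36.2, 34.2 and 27.0 CPM had the lowest ratio, −0.34 (−0.62 to −0.07), and *Vamp2*, the vesicle SNARE, was at 551, 804 and 732 CPM (−0.14, −0.19 to −0.08). The 11 measured receptor genes had a median of −0.0015 and 0 lower by 1.3-fold, and *Gria2*, an AMPA receptor subunit, was higher at 41.1, 35.5 and 47.6 CPM (0.42, 0.19 to 0.65), though at −0.0048 in the cells with more excitatory than astroglial UMIs. *Cnih2*, an auxiliary subunit of AMPA receptors, was level at 1098 and 1097 CPM. Of 18 measured scaffold genes 1 was higher and 0 lower, *Shank2* at 27.2, 19.6 and 26.2 CPM (0.42, 0.11 to 0.73). *Gria2* and *Shank2* were lowest in heterozygous cells and rest on 159 to 370 UMIs in each mutant library. Adhesion and guidance genes (12 measured), ion channels (6) and immediate early genes (4) had 0 members past 1.3-fold and medians of −0.06, −0.03 and −0.04.

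Cytoskeletal lists had few members past 1.3-fold. Kinesin and dynein motors had 0 higher and 1 lower of 24 measured genes, where 4.64% of all genes were past 1.3-fold, and a median of 0.02, the lower being *Kif3a*, a subunit of the heterotrimeric kinesin-2, at 51.2, 50.3 and 36.7 CPM (−0.45, −0.69 to −0.23). That list does not hold the dynein light chain genes *Dynlt1a* and *Dynlt1f*, near-identical copies with ratios of 5.51 and 1.23 that are described with the other copies. *Kif1a*, a kinesin that carries synaptic vesicle precursors, was at 491 and 504 CPM in both mutants, below the 773 CPM of wild-type. Tubulins (10 measured), microtubule-associated proteins (24) and actin genes (30) had 0 members past 1.3-fold and medians of −0.02, 0.04 and −0.03. *Pfn1*, which encodes the actin-binding protein profilin 1, came closest, at 801, 847 and 1100 CPM and a ratio of 0.38 (0.33 to 0.42), just under the limit. *Dpysl2*, which encodes the collapsin response mediator CRMP2, was at 955, 921 and 1092 CPM (0.25, 0.20 to 0.29), and *Map1a*, a dendritic microtubule-associated protein, at 128, 117 and 98.3 CPM (−0.25, −0.39 to −0.11).

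In the Wnt pathway, ligands bind Frizzled and LRP receptors, and beta-catenin, otherwise marked for degradation with the help of GSK3β, enters the nucleus. Of 32 genes of the pathway 11 were measured at 20 CPM or more, with a median of 0.02. By 1.3-fold 0 were higher and 1 lower, against 2.76% and 1.88% of all measured genes. The lower gene was the ligand *Wnt7b* (ENSMUSG00000022382), at 26.2, 28.4 and 18.1 CPM from 96, 296 and 110 UMIs. Homozygous cells were the lowest, with a ratio of −0.65 (−0.98 to −0.33) to heterozygous cells, which was −0.47 in empty droplets and −0.68 in the other sorted cells. *Ctnnb1*, which encodes beta-catenin, was level at 172 and 170 CPM, and *Gsk3b* was at 247 and 264 CPM (0.10, 0.01 to 0.19). Of 8 autism risk genes that the study named, *Ctnnb1* and *Gsk3b* among them, 0 were past 1.3-fold. The list was picked by the study on these libraries, and its 4 ratios above and 4 below 0 are no independent evidence of a direction.

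**Figure D3:**
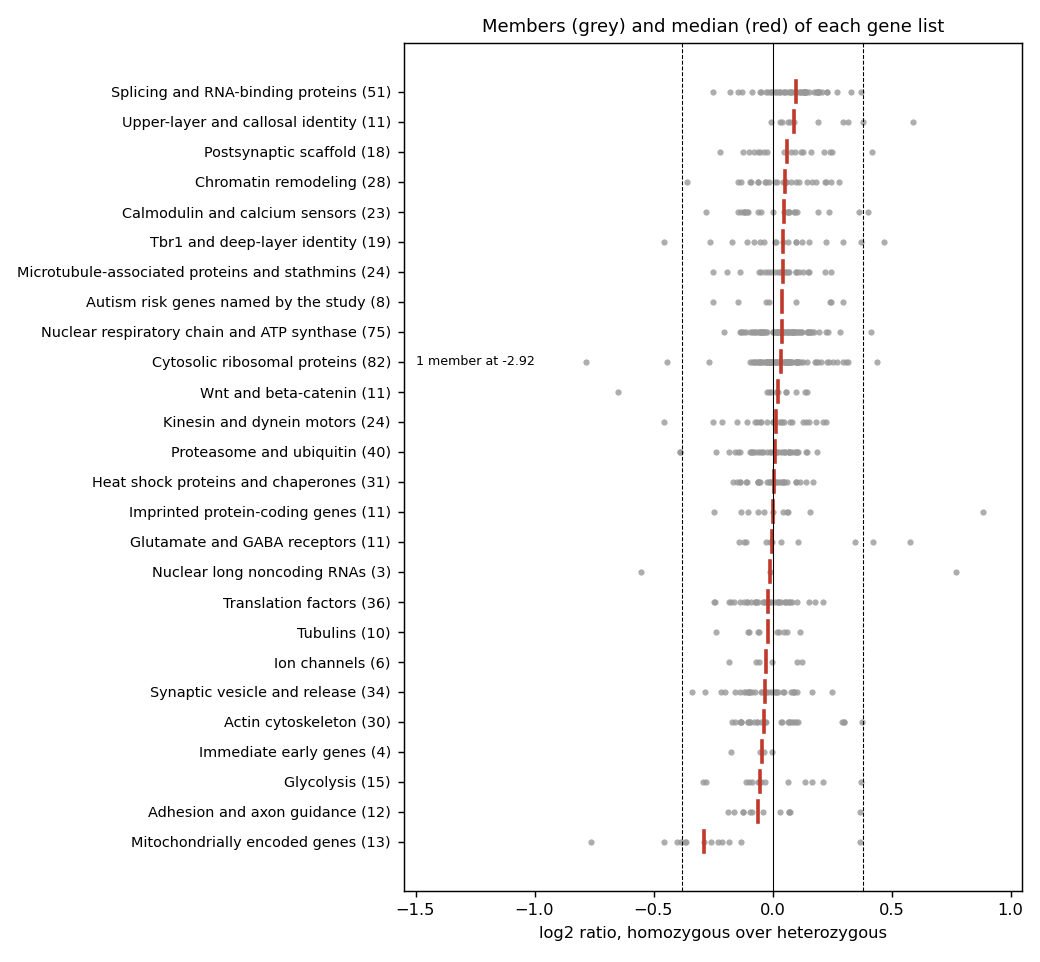
Homozygous over heterozygous log2 ratio of each measured member (grey) of 26 gene lists, with the median in red, the number measured in brackets and dashed lines at 1.3-fold. Medians lie between −0.06 and 0.10 except for the mitochondrially encoded genes at −0.29, and 1 ribosomal gene, *Rpl29*, lies off the scale at −2.92.

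Genes of the mitochondrial genome, which encode subunits of the respiratory chain and ATP synthase, were lower in homozygous than in heterozygous cells. Of 13 genes 12 had a ratio below 0. By 1.3-fold 4 were lower and 0 higher, against 1.88% and 2.76% of all measured genes. Their sum was 106800, 157300 and 128100 CPM from wild-type through heterozygous to homozygous. The median was −0.29 in typical cells, −0.25 in empty droplets and −0.68 in the other sorted cells, and −0.06 in cells matched on the mitochondrial share itself. *mt-Cytb*, which encodes cytochrome b, was at 12300, 18910 and 14320 CPM (−0.40, −0.41 to −0.39), and *mt-Atp8*, an ATP synthase subunit, at 493, 399 and 235 CPM (−0.76, −0.85 to −0.68). The exception was *mt-Nd6*, the 1 gene of the list on the other strand, at 57.5, 46.6 and 60.1 CPM (0.37, 0.17 to 0.57). The heterozygous library had the highest mitochondrial share of the 3, and the part of cell quality in these values was not tested. Nuclear genes of the same complexes had a median of 0.04 over 75 genes. Of these 1 was higher and 0 lower, against 4.64% of all measured genes past 1.3-fold. The higher gene was *Uqcrq*, a complex III subunit, at 2098, 2016 and 2683 CPM (0.41, 0.38 to 0.44).

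Splicing and RNA-binding genes leaned the other way relative to all UMIs, with a median of 0.10 over 51 measured genes. Of these 40 had a ratio above 0, where the median of all measured genes was 0.01. In cells matched on mitochondrial share the median of the list was 0.03, where that of all genes was −0.07. As mean raw UMIs per cell it was −0.23, where that of all genes was −0.32. None of the 51 genes was past 1.3-fold, against 4.64% of all measured genes, and in empty droplets the median of the list was −0.02. *Son*, a scaffold of nuclear speckles, was at 195, 115 and 148 CPM (0.37, 0.25 to 0.50). *Malat1*, a long noncoding RNA kept in the nucleus, was at 1130, 348 and 594 CPM, a ratio of 0.77 (0.70 to 0.84) that was −0.02 in empty droplets, 0.82 in the other sorted cells and −0.40 (−0.52 to −0.27) in atypical neuronal cells. In the mutants its levels were far higher in empty droplets, at 1931 and 1908 CPM, and in the other sorted cells, at 14930 and 26360 CPM. With the empty-droplet profile taken off the ratio was 0.67, and the part of free RNA in the levels was not tested. Of 3 measured long noncoding RNAs of its list *Gm42418* ran the other way, at 383, 162 and 111 CPM (−0.55, −0.68 to −0.42). *Alyref*, an mRNA export adaptor that the list of splicing and RNA-binding genes does not hold, was at 184, 195 and 271 CPM (0.47, 0.37 to 0.56). Among 11 measured imprinted genes the 1 past the limit was *Ndn*, which encodes necdin and is expressed from the paternal allele, at 240, 153 and 283 CPM (0.88, 0.78 to 0.98). *Malat1*, *Son* and *Ndn* were lowest in the heterozygous library, and the ratio of *Ndn* was much the same in empty droplets (0.83) and in the other sorted cells (0.98).

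Translation factors (36 measured), chaperones (31), glycolytic enzymes (15) and chromatin regulators (28) had 0 members past 1.3-fold, against 4.64% of all measured genes. Their medians were −0.02, 0.01, −0.05 and 0.05. The 82 cytosolic ribosomal proteins had a median of 0.04, with 1 higher and 3 lower by 1.3-fold. The 1 higher gene was *Rpl35* at 4247, 3433 and 4651 CPM (0.44, 0.42 to 0.46). Among the lower were *Rpl26* at 2590, 1941 and 1425 CPM (−0.45, −0.48 to −0.41) and *Rpl29*. Of 40 proteasome and ubiquitin genes 0 were higher and 2 lower, *Ubb* and *Psmd3*.

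Several of the largest ratios belong to genes with a near-identical copy elsewhere in the genome. *Rpl29* (chromosome 9 of GRCm38, 106429454 to 106431568) was at 843, 857 and 114 CPM across the genotypes, a log2 ratio of −2.92 (−3.03 to −2.80) between the mutants. Its processed pseudogene *Gm10709* (chromosome 9, 7751725 to 7752204) was at 940, 488 and 1135 CPM, a ratio of 1.22 (1.16 to 1.27). Their sum was 1783, 1346 and 1248 CPM across the genotypes, a ratio of −0.11 (−0.15 to −0.07) between the mutants. *Ubb*, a polyubiquitin gene (chromosome 11, 62551171 to 62553213), was at 3256, 3679 and 2814 CPM and *Gm8797* (chromosome 3, 5750806 to 5751295) at 229, 30.04 and 777 CPM. The ratios of −0.39 and 4.69 became −0.05 (−0.07 to −0.02) for the sum, so each pair nearly balanced between the mutants. The transcripts of the first pair are 99.17% identical over 480 aligned bases with 4 substitutions, and those of the second 98.18% over 384 bases with 6 substitutions and 1 gap. A stretch of 30 bases of each transcript (GENCODE M21, 5′ to 3′) shows how little tells them apart, with the differing bases in capitals.
Rpl29: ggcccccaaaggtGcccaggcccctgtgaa
Gm10709: ggcccccaaaggtAcccaggcccctgtgaa
Ubb: cTtGgaggtggagcccagtgacaccatCga
Gm8797: cCtAgaggtggagcccagtgacaccatTga
A read from such a stretch is assigned to a gene by 1 to 3 bases, so the levels of single members are uncertain. Their sum counts a read whichever member it was given to, but not a read given to neither. Sums of other pairs did not all return to 0. *Sft2d1* and *Gm12166* summed to a ratio of 0.29 (0.11 to 0.47) from 0.97 and −1.87. *Dynlt1a*, a dynein light chain gene at 95.3, 1.73 and 78.9 CPM, and its copy *Dynlt1f*, at 47.7, 22.8 and 53.7 CPM, were both lowest in heterozygous cells. With the further copies *Dynlt1b* and *Dynlt1c* the 4 genes summed to 169, 61.6 and 172 CPM, a ratio of 1.48 (1.33 to 1.62). Of the 48 genes past 1.5-fold (1.11% of those measured), 17 (35.4%) had a copy at another locus of at least 95% identity over 200 bases or more and of at least 10% of their own CPM, and of the 34 genes past 1.3-fold at 100 CPM or more (2.71% of those measured), 14 (41.2%) had one. The same held for 3.44% of all 4307 measured genes and 4.39% of the 1253 at 100 CPM or more.

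**Figure D4:**
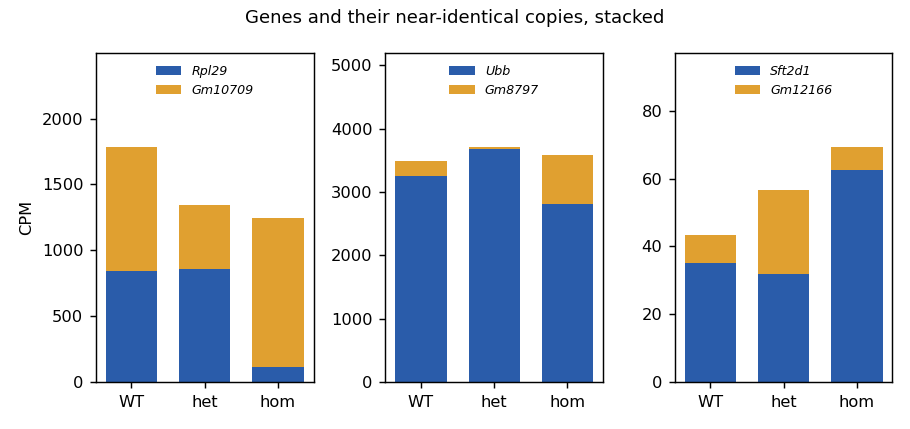
CPM of 3 genes (blue) and a near-identical copy (orange), stacked, in typical cells of the wild-type (WT), heterozygous (het) and homozygous (hom) library. *Rpl29* shrinks to 114 CPM in homozygous cells while *Gm10709* grows to 1135 CPM, and the heights of the *Rpl29* and *Ubb* stacks differ by −0.11 and −0.05 in log2 between the mutants.

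Most of the larger ratios at high levels recurred outside the typical cells. Of the 34 genes past 1.3-fold at 100 CPM or more, 33 had the same sign in empty droplets and 24 were past 1.3-fold there, and in the other sorted cells 31 had the same sign and 18 were past it. In atypical neuronal cells, of which the heterozygous library had 107 and the homozygous 462, these numbers were 32 and 26. Across 4306 genes, which are not independent replicates and share their libraries, the ratio in typical cells followed that in empty droplets with a Pearson r of 0.74, that in the other sorted cells with an r of 0.48 and, across 4288 genes, that in atypical neuronal cells with an r of 0.25. Over the 1251 genes at 100 CPM or more without *Gm8797* and *Rpl29*, r was 0.80, 0.45 and 0.32 in the same order. Free RNA in the droplets of typical cells and a difference shared by all cells of a library cannot be told apart by these values.

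Chromosomes 11 and 17 held more of the genes past the limit than the other nuclear chromosomes with at least 10 measured genes, a pattern chosen after the values were seen. On chromosome 11, 38 of 363 genes (10.5%) were past 1.3-fold and on chromosome 17, 18 of 205 (8.78%), against 4.64% of all genes and 3.85% of 3739 genes elsewhere. At 1.5-fold the count was 20 of 568 on both together and 28 of 3739 elsewhere. Of the 8 such genes on chromosome 17, *BC023719*, *Dynlt1a*, *Dynlt1f*, *Gm8186*, *H2-D1* and *Sft2d1* have a near-identical copy as defined above. Of the 12 on chromosome 11, *Hba-a1* has one. The levels of these single members are uncertain. Genes of both directions were found there, 18 higher and 20 lower on chromosome 11 and 9 higher and 9 lower on chromosome 17. The 1 measured gene placed on chromosome Y, none of the Y-linked genes named above, was lower at −0.39.
On chromosome 11, *Usp22*, which encodes a deubiquitinase of the SAGA complex, was at 80.1, 66.0 and 131 CPM across the genotypes, a ratio of 0.99 (0.84 to 1.14). *Bod1*, a regulator of chromosome biorientation, was at 55.6, 72.2 and 31.6 CPM (−1.19, −1.43 to −0.96), and *Ccm2*, a gene of cerebral cavernous malformation, at 43.3, 72.3 and 34.7 CPM (−1.06, −1.28 to −0.84). *Alkbh5*, an RNA demethylase, was at 25.6, 32.6 and 12.8 CPM (−1.35, −1.72 to −0.99). In empty droplets these 4 ratios were 1.02, −1.496, −0.89 and −1.35, all in the direction of the typical cells. On chromosome 17, *BC023719* had 418 UMIs (40.1 CPM) in heterozygous and 0 in homozygous cells, at least 81.2-fold lower when 3 counts are taken as the floor of the homozygous library. It has a copy, *A930015D03Rik*, 96.44% identical over 871 bases and at 17.9 and 1.65 CPM, and their sum had a log2 ratio of −5.14 (−6.21 to −4.25). *Tmem151b* was at 57.5, 75.9 and 34.7 CPM (−1.13, −1.35 to −0.91), with a ratio of −0.73 in empty droplets. Around *Tbr1* itself, on chromosome 2, 0 of the 32 measured genes within 20 Mb were past 1.3-fold.

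**Figure D5:**
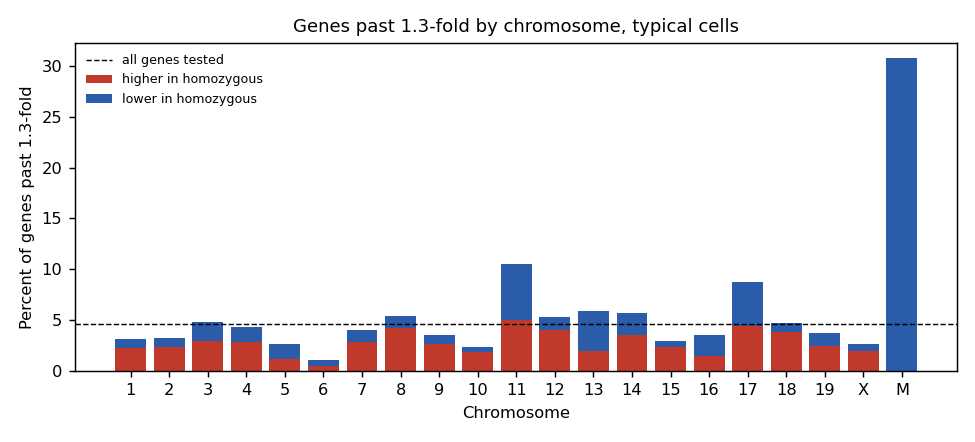
Percent of measured genes past 1.3-fold on each chromosome with at least 10 such genes, higher (red) and lower (blue) in homozygous cells, with the 4.64% of all genes as a dashed line. Chromosomes 11 and 17 stand above the other nuclear chromosomes, and the mitochondrial genome (M) has 4 lower genes of 13.

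Markers of other cells also differed. Of 6 blood markers 5 were detected, with none of these at 0, and summed to 44.6 CPM in heterozygous and 85.8 CPM in homozygous typical cells (log2 ratio 0.94, 0.76 to 1.13) and to 307 and 422 CPM in empty droplets. Within this list the alpha-globin genes *Hba-a1*, at 8.06 and 39.0 CPM, and *Hba-a2*, at 9.98 and 4.12 CPM, ran in opposite directions, are 99.81% identical over 538 bases and had a ratio of 1.26 (0.98 to 1.54) when summed. Endothelial markers, 8 of 8 detected, summed to 33.6 and 56.5 CPM (0.75, 0.53 to 0.97), and to 192 and 237 CPM in empty droplets. Meningeal markers, 9 of 9, summed to 35.3 and 48.2 CPM (0.45, 0.22 to 0.67), of which *Ptgds* alone made up 25.8 and 38.4 CPM, and in empty droplets the list was lower in the homozygous library, at 419 and 273.5 CPM. Markers of the oligodendrocyte lineage, 9 of 10, were lower in homozygous cells, at 494 and 431 CPM (−0.20, −0.27 to −0.13), and at 690.3 and 658 CPM in empty droplets. Sums were also higher in homozygous cells for markers of cycling cells, 10 of 10, at 141 and 193 CPM (0.45, 0.34 to 0.56), of mural cells, 8 of 8, at 18.2 and 24.4 CPM (0.42, 0.10 to 0.74), and of striatal projection neurons, 9 of 10, at 133 and 169 CPM (0.34, 0.22 to 0.46). In empty droplets these sums were 302 and 324 CPM, 145 and 142 CPM, and 154 and 178 CPM in the same order. The part of these cells in the ratios of other genes was not tested. Inhibitory markers, 13 of 13, summed to 552 and 674 CPM (0.29, 0.23 to 0.35), of which *Npy*, a neuropeptide of interneurons, made up 280 and 401 CPM (0.52, 0.44 to 0.60), with *Gad1* at 18.1 and 15.3 CPM. In empty droplets *Npy* was level between the libraries (0.03), and in the other sorted cells its ratio was 0.75.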

How the data were processed

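Libraries of tdTomato+ mPFC cells at P5, 1 per genotype, were made by the authors with 10X Chromium Single Cell 3′ v2, and UMIs were counted with Cell Ranger 2.0.1 on mm10, per the labels. The deposited table of filtered cells holds raw UMI counts of 14933 genes, kept by the authors with limits of 30% mitochondrial share, 500 to 10000 UMIs and 500 to 3000 genes. The mitochondrial share was deposited as a fraction, and the table of 11943 neuronal cells and 7174 genes, deposited as natural log of 1 plus UMIs per 10000, gave only the names of cells and genes. The authors' scaled score table was not used for any value.

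Counts were summed over typical cells in Python 3.11.15 (NumPy 2.4.6, SciPy 1.17.1, pandas 2.3.3). Depth per library and its precision stand in the report. Near-identical copies were found among GENCODE M21 transcripts with BLAST 2.17.0. TMM factors (edgeR 4.0.16) and size factors (DESeq2 1.42.0, R 4.3.3) served as alternatives, with no count model. The ratio and interval were tested on simulated data. No doublet caller was run.

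Members, lists and the 1.3-fold limit were chosen with earlier results of these data known. Genes named were *Tbr1*, the 12 highest and 12 lowest ratios at 100 CPM or more, genes the study names, and of each list the 2 members highest in level, in ratio and lowest in ratio. Genes in the accounts of chromosomes, copies and other cells outside this rule were chosen after their values were seen. Results of some genes of the lists are not reported here.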

Additional observations from a re-analysis of the deposited data

Results flagged for a closer look

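Listed here are 9 genes whose homozygous over heterozygous ratio passed 1.3-fold in typical cells and, the other way, in the other sorted cells. Their counting intervals lay to 1 side of equal levels in both sets. Genes whose interval in the other sorted cells crossed equal levels, such as *2900009J06Rik* (0.65 against −0.497, −1.155 to 0.13), are left out. The share of all genes past 1.3-fold in the other sorted cells, a mixture whose makeup differs between the libraries, is not given beside this count. The difference between both sets of cells was not tested. For *Nrgn*, a marker by which the authors picked neuronal clusters, the grouping of cells itself shapes the values. Higher in typical and lower in other cells were *Nrgn* (log2 ratio 0.40 against −0.59), *Cox6a2*, a cytochrome c oxidase subunit (0.55 against −1.16), *Rasl10a* (0.42 against −0.72), *Shank2* (0.42 against −0.63) and *Apba1*, which encodes a presynaptic adaptor (0.38 against −0.75). Lower in typical and higher in other cells were *H2-D1*, a class I histocompatibility gene (−0.62 against 0.45), *Cort*, a neuropeptide of interneurons (−0.45 against 0.63), *Sparc*, a matrix protein of glia and vessels (−0.42 against 0.74), and *Ostc*, an oligosaccharyltransferase subunit (−0.38 against 0.43). In the other cells these ratios rest on 25 UMIs of *Apba1* to 6938 UMIs of *Nrgn* in a library. In empty droplets 7 of the 9 had the direction of the typical cells, *Cort* at −1.04, *Sparc* at −0.40, *H2-D1* at −0.40, *Nrgn* at 0.25, *Shank2* at 0.24, *Ostc* at −0.18 and *Apba1* at 0.04, while *Cox6a2* at −0.03 and *Rasl10a* at −0.09 did not.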

How the results depend on the processing

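No paired analysis was possible because each genotype had 1 library, which also left no replicate to leave out. Cells with a UMI of the Y-linked genes named above and no *Xist* gave no value, since the heterozygous library had 0. The numbers of genes past 1.3-fold, 119 higher and 81 lower, were within 1.5 times of this under TMM factors, size factors, equal weight per cell, atypical cells included, subtraction of the empty-droplet profile, leaving out the deepest 5% of cells and the mean over 3 libraries. They became 546 and 437 at a minimum of 5 CPM, 23 and 11 at 100 CPM, 29 and 19 at 1.5-fold, and 17 and 1531 as mean raw UMIs per cell. Lower genes were 173 with the neuronal genes as denominator, which brought 5457 genes to the minimum of 20 CPM. They were 125 with cells thinned to 1000 UMIs and 231 in cells matched on mitochondrial share. Higher genes were 179 in 2806 cells per library matched on depth. The 60 heterozygous and 27 homozygous cells that had *Xist* but lacked Y-linked UMIs gave 1738 and 1263, and the 364 and 311 cells with more excitatory than astroglial UMIs, an alternative chosen after seeing the data, 681 and 638. So few cells widen the counting error, and the cause of the other shifts was not tested. Ratios past 1.3-fold that turned in cells with *Xist* were *BC048546* (1.34), *Cort* (0.57), *Gm8186* (−1.02), *Lsm7* (−0.48), *Nme2* (0.34), *Npy* (−0.94), *Plvap* (−0.018), *Psmd3* (0.24), *Rpl9-ps6* (−0.018), *Rps26-ps1* (−0.43) and *Trappc2l* (−0.43). In cells with more excitatory UMIs *Apba1* (−0.47), *B9d1* (−0.0093), *Cort* (1.34), *Gria2* (−0.0048) and *Tshz2* (−0.054) turned, and *Hbb-bs* (−1.02) after subtraction of the empty-droplet profile. Under the other alternatives no named ratio past 1.3-fold turned. Depth limits genes at 20 to 50 CPM to ratios of about 0.27 or more.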

Other observations

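Promoter windows of RefSeq (GRCm38.p6), 250 bases before to 50 after the start of a gene, were searched for the T-box letters AGGTGTGA on both strands. Of 3311 measured genes with a window 23 (0.695%) held them, with 0 of 81 genes higher by 1.3-fold and 2 of 58 lower, *Ephx4* at a log2 ratio of −0.43 and *Cdkn1a* at −0.38. The windows of *Tbr1* and *Nrgn* did not hold these letters, which is a description and says nothing of binding by TBR1.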
